A study of Mus musculus with 15 samples.

Results

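The results describe how mouse submandibular glands that had been irradiated and injected with iEVs (group IR_iEV_30d) differed from glands that had been irradiated only (group IR_30d), both collected 30 days after irradiation. The comparison rests on 6 of the 15 bulk RNA-seq libraries of the study, 3 per group, taken by their labels in the deposited count table. The donors were wild-type male C57BL/6 mice aged 8 to 10 weeks. Both groups received 15 Gy at the gland region, and IR_iEV_30d glands were also injected weekly from day 1 with iEVs, a name that the labels do not spell out and that the series title ties to vesicles from mesenchymal stem cells. Irradiated glands without and with iEVs collected at day 4 (IR_4d and IR_iEV_4d) and nontreated glands (NT) are used here only beside the day 30 values. No collection day is given for NT. Weekly injection gives fewer injections by day 4 than by day 30, so the day and the number of injections cannot be told apart. No vehicle-injected group and no group given iEVs alone is labelled, so the vesicles, their carrier and the needle cannot be told apart in what is called an iEV change below. Whether each library came from its own mouse is not stated, so p-values measure only the spread between these libraries, which may be technical. In whole glands, fewer cells of a type and less RNA per cell cannot be told apart.

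In male mice the submandibular gland combines acini, which secrete a watery fluid through the water channel aquaporin 5, with granular convoluted tubules, duct segments that store kallikreins and growth factors and depend on androgens. Irradiation damages the secretory cells and can set off p53, interferon and NF-kB programmes. NF-kB is a family of dimeric transcription factors, and Nfkb2 encodes p100, the precursor that is cut to p52 in the slower, noncanonical branch of the pathway. Interferons act through receptors and STAT and IRF factors on genes that carry an interferon-stimulated response element, and those genes encode antiviral effectors and guanylate-binding GTPases.

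The 6 libraries held between 30564255 and 41367972 counts. Tubule Egf, at 34282 to 71940 CPM (read counts scaled to library size with TMM factors), and acinar Aqp5, at 192 to 319 CPM, were present in each of the 6, so the defining markers of the labelled tissue were there. Markers of the neighbouring sublingual gland stood high in IR_iEV_30d replicate 2, where Dcpp3 reached 1568 CPM against 0.634 to 10.9 CPM in the other 5 libraries. Markers of the parotid gland stood high in IR_30d replicate 2 and IR_iEV_30d replicate 2, with Bpifa2 at 296 and 1358 CPM against 5.94 to 14.7 CPM elsewhere. Adipocyte markers were higher in IR_30d than in most IR_iEV_30d libraries: the mean log2 CPM of the list was 0.54, 1.39 and 1.55 in IR_30d and -0.64, 0.84 and -0.60 in IR_iEV_30d, the groups overlapping. Adipoq, which defines fat cells, was at 0.755 to 3.30 CPM in IR_30d and 0 to 1.22 CPM in IR_iEV_30d, and 0 of 16 tested adipocyte markers passed the edgeR test, 0 had an unadjusted p under 0.05, and DESeq2 and limma-voom called 0. Erythrocyte markers ranged from 0.43 to 3.15 in IR_30d and from -0.30 to 1.98 in IR_iEV_30d.

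**Figure D1:**
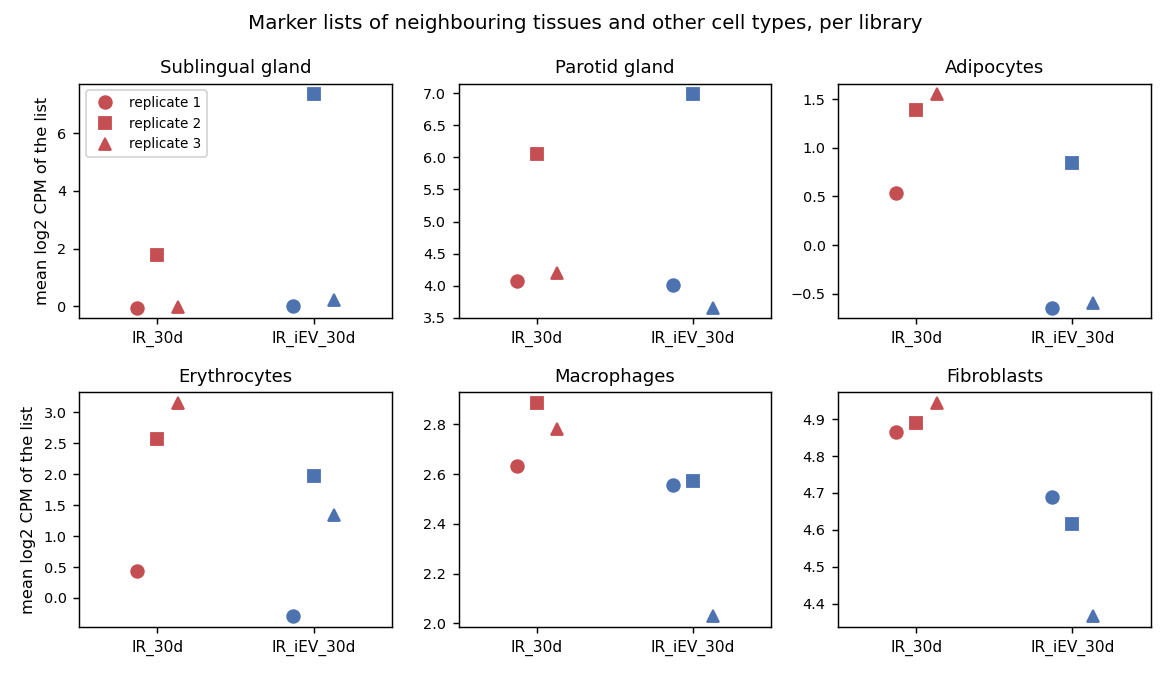
Mean log2 CPM of 6 marker lists (y axis) in each library of IR_30d (red) and IR_iEV_30d (blue), with the marker shape giving the replicate number. Sublingual markers are high in IR_iEV_30d replicate 2 alone, at 7.35, and parotid markers in replicate 2 of both groups. The groups do not overlap for the fibroblast list (4.86 to 4.94 against 4.37 to 4.69) or the macrophage list (2.63 to 2.89 against 2.03 to 2.57).

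Of 16042 genes tested, 128 differed between the groups at an adjusted p under 0.05 in edgeR's quasi-likelihood test, which is 0.798%. Lower in IR_iEV_30d were 101 genes (0.630%) and higher were 27 (0.168%). At least 2-fold lower were 22 of them and at least 2-fold higher were 2. An unadjusted p under 0.05 was found for 2066 genes (12.9%), 1172 of them lower (7.31%) and 894 higher (5.57%), against which the counts at that level in the lists below can be read. The median log2 change was -0.01 over the tested genes, and the CPM of the groups did not overlap for 3150 genes (19.6%), with all 128 called genes among them. A gene is said below to have fallen or risen only where it passed this test, and every log2 change is IR_iEV_30d minus IR_30d.

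How many genes passed depended on single libraries. Without IR_30d replicate 3 the test called 9 genes, without IR_30d replicate 2 it called 12, without IR_iEV_30d replicate 3 it called 26, without IR_iEV_30d replicate 1 it called 31 and without IR_30d replicate 1 it called 69. Without IR_iEV_30d replicate 2, the library rich in sublingual and parotid markers, it called 192. DESeq2 on the 15 libraries called 408 genes, of which 65.0% were lower, against 78.9% in the main test. None of the 128 changed direction in any of the 18 alternative fits that were run, and 8 of them stayed past the threshold in every one of those fits. Of the 6 fits that left out 1 day 30 library, 11 of the 128 genes passed in 0, 53 in 1, 37 in 2, 13 in 3, 4 in 4, 2 in 5 and 8 in 6.

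Those 8 genes fell. Nfkb2 stood at 84.9, 90.2 and 78.9 CPM in IR_30d and at 40.9, 39.5 and 39.8 CPM in IR_iEV_30d. Hsd11b1, whose enzyme turns inactive glucocorticoid into the active hormone, stood at 117, 125 and 102 CPM and at 46.2, 46.6 and 38.4 CPM. B3gnt5, a glycosyltransferase that starts the lacto-series of glycosphingolipids, stood at 12.2, 10.2 and 12.4 CPM and at 4.43, 4.68 and 3.53 CPM. In each of these 3 genes every IR_30d library lay above every IR_iEV_30d library, and the groups were likewise apart in each of the 128 called genes. Nfkb2 fell by 1.08 ± 0.10 (SE) on the log2 scale (adjusted p = 9.1e-05), Hsd11b1 by 1.39 ± 0.15 (adjusted p = 0.00052) and B3gnt5 by 1.46 ± 0.19 (adjusted p = 0.0021). When single libraries were left out, the change of Nfkb2 ranged from -1.13 to -1.03, that of Hsd11b1 from -1.47 to -1.30 and that of B3gnt5 from -1.55 to -1.35.

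Igfals encodes the acid-labile subunit that holds insulin-like growth factors in large complexes. Its CPM was 41.3, 48.4 and 42.5 in IR_30d and 19.996, 20.5 and 24.6 in IR_iEV_30d, a fall of 1.02 ± 0.12 (adjusted p = 0.00055). Mcam, an adhesion molecule (CD146) of vessel walls, was at 41.6, 42.1 and 39.98 CPM and at 22.3, 27.7 and 23.2 CPM and fell by 0.76 ± 0.11 (adjusted p = 0.0038). Mcam was the 1 gene called of 11 tested markers of mural cells and smooth muscle, whose median change was 0.03. Slc39a14 (ZIP14), which imports zinc, iron and manganese, was at 43.2, 48.3 and 46.4 CPM and at 29.5, 30.2 and 29.4 CPM and fell by 0.63 ± 0.08 (adjusted p = 0.0021). Its IR_iEV_30d libraries also lay below each NT library, which ranged from 30.8 to 34.8 CPM, although the test of IR_iEV_30d against NT did not call it (adjusted p = 0.40). Ahcyl2, a relative of S-adenosylhomocysteine hydrolase, fell by 0.62 ± 0.09 and the predicted gene Gm42226 by 0.57 ± 0.08, both with an adjusted p of 0.0038. These last 2 were named after their values were seen, because they too passed in every fit.

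**Figure D2:**
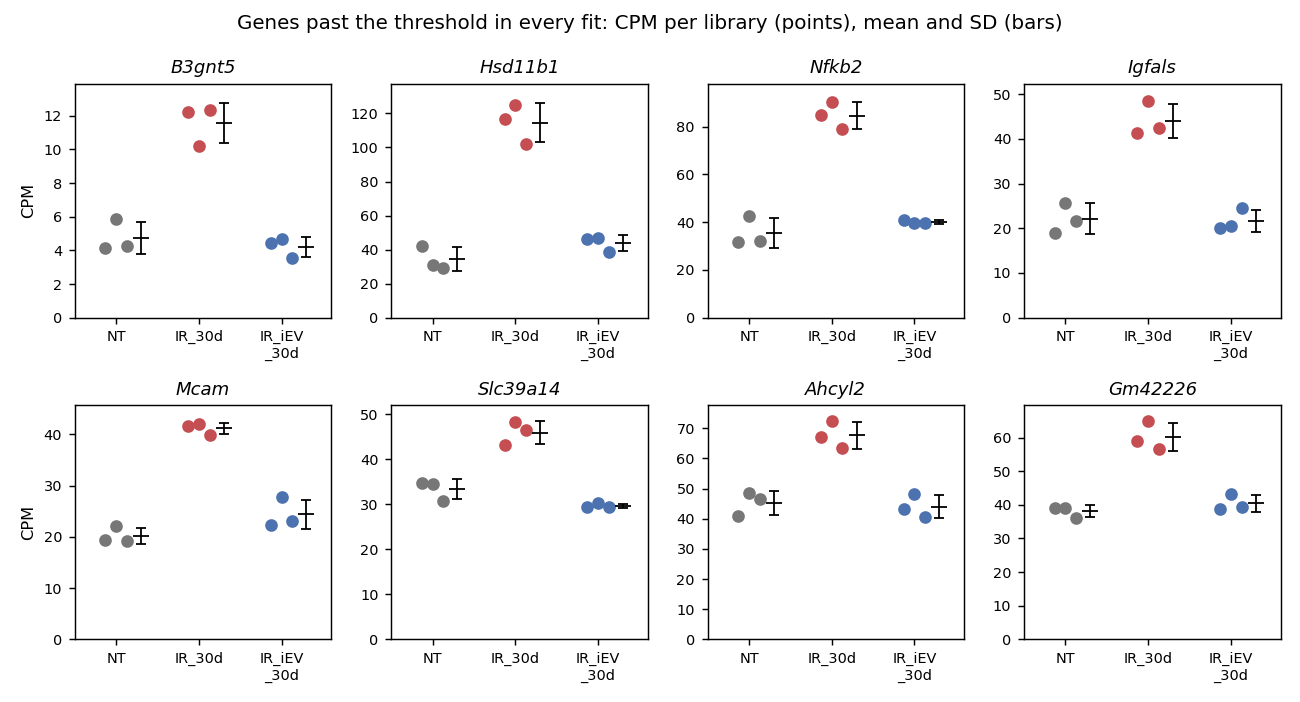
CPM (y axis, from 0) of the 8 genes past the threshold in every fit, 1 point per library in NT (grey), IR_30d (red) and IR_iEV_30d (blue), with the mean and SD of 3 libraries beside the points. In each panel the 3 IR_30d libraries lie above the 3 IR_iEV_30d libraries without overlap, for example 78.9 to 90.2 CPM against 39.5 to 40.9 CPM for Nfkb2. The groups do not overlap in any of the 128 called genes.

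Beside the nontreated glands, the genes that fell with iEVs sat mostly high after irradiation alone. Over the 101 lower genes the median log2 difference was -0.76 between IR_iEV_30d and IR_30d, 0.72 between IR_30d and NT, and 0.05 between IR_iEV_30d and NT. Over the 27 higher genes the medians were 0.59, -0.45 and 0.08. The first 2 differences use the same IR_30d libraries, with opposite sign, so a chance deviation of those libraries moves both and neither supports the other. Against NT the test called 4.48% of tested genes in IR_30d and 1.10% in IR_iEV_30d. Past the threshold against NT in IR_iEV_30d were 4 of the 101 and 1 of the 27, named here after their values were seen. Siglec1, a sialic acid receptor of macrophages, was still 1.03 above NT (adjusted p = 0.0041). Col6a3, a chain of type VI collagen, had a difference from NT of -0.99 (adjusted p = 0.00032). Ccdc80, a matrix-associated protein, had one of -1.01 (adjusted p = 0.0036), and the predicted gene Gm46152 one of -0.94 (adjusted p = 0.0020). Prrg3, a membrane protein with a Gla domain that rose by 0.65 with iEVs, had a difference from NT of -0.68 (adjusted p = 0.0093).

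Of the 5 NF-kB subunit genes Nfkb2 was the 1 that passed. Nfkb1 was at 41.6, 40.9 and 38.6 CPM in IR_30d and at 39.3, 43.9 and 46.8 CPM in IR_iEV_30d, with a change of 0.10 ± 0.09 (adjusted p = 0.68). The values of Rela (-0.03 ± 0.10), Relb (0.10 ± 0.15) and Rel (-0.21 ± 0.30) did not pass either, Rela and Relb standing here as the rest of a list of 5, and the groups overlapped for each of the 4. None of 18 inhibitor and feedback genes and none of 9 kinase genes passed in edgeR, DESeq2 or limma-voom, and 1 gene of each list had an unadjusted p under 0.05. Of 22 tested NF-kB target genes 3 fell (Lcn2, Cfb and Nfkb2 itself), 0 rose and the list's median was -0.13. The median was -0.02 without IR_30d replicate 2, -0.26 without IR_30d replicate 1 and -0.25 without IR_iEV_30d replicate 2. The 3 calls were 2 without IR_30d replicate 2 or IR_iEV_30d replicate 1, and 1 without IR_30d replicate 3 or IR_iEV_30d replicate 3. Lcn2, a siderophore-binding protein of innate defence, was at 96.5, 164 and 145 CPM in IR_30d, 23.9, 37.4 and 18.4 CPM in IR_iEV_30d and 23.3 to 26.5 CPM in NT. It fell by 2.35 ± 0.31 (adjusted p = 0.011), and its adjusted p was 0.057 without IR_30d replicate 3, 0.055 without IR_iEV_30d replicate 1 and 0.051 without IR_iEV_30d replicate 3. Tnfsf10, the death ligand TRAIL, was the 1 gene called of 18 TNF family genes, at 5.26 to 5.97 CPM against 2.78 to 3.56 CPM, and it passed in no fit that left out 1 library.

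The RefSeq sequence upstream of Nfkb2 is shown because Nfkb2 is both a subunit and a target of the pathway. It holds 4 matches to the kappa B consensus over both strands, in capitals. Of these, 3 overlap in a run that begins 39 bases before the start, where the same bases match on each strand, and 1 lies 11 bases before it. The sequence shown is that of the most upstream of 3 RefSeq starts and covers chr19:46304487-46304736, plus strand, in GRCm38.p6, a different build from that of the count table.
Nfkb2: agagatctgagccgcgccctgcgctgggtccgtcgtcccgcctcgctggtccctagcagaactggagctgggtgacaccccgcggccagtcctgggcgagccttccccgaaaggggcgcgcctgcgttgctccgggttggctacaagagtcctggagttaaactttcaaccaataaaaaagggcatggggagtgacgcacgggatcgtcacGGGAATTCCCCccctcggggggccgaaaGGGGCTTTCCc
The kappa B consensus was found in the same 250-base window of 531 of 12155 tested genes with a RefSeq promoter (4.37%) and in 7 of 17 NF-kB target genes (41.2%). It was found in 4 of 77 genes that fell (5.19%) and in 2 of 22 that rose (9.09%). The window of Lcn2 held 0 matches. A match describes letters only and does not show that a factor was bound.

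Most interferon-responsive genes had lower values with iEVs, and few passed the test. Of 55 tested interferon-stimulated effectors 3 fell (Oas2, Ifit3 and Helz2), 0 rose, and 50 had a change below 0. The list's median was -0.42 against -0.01 over the tested genes, 29 members had an unadjusted p under 0.05, each of them lower (7.31% of tested genes), and 32 did not overlap between the groups against 19.6% of the tested genes. Ifit3, which helps to block viral RNA translation, was at 13.05, 12.2 and 15.6 CPM in IR_30d, at 7.53, 7.02 and 4.93 CPM in IR_iEV_30d and at 3.44 to 5.82 CPM in NT. Oas2, a sensor of double-stranded RNA, was at 6.07, 10.6 and 8.39 CPM and at 3.75, 4.64 and 3.04 CPM. Every IR_iEV_30d library lay below every IR_30d library for both, as for each gene called lower. Ifit3 fell by 1.07 ± 0.19 (adjusted p = 0.014), Oas2 by 1.14 ± 0.25 (adjusted p = 0.042) and Helz2, a helicase coactivator, by 0.65 ± 0.11 (adjusted p = 0.012). Ifit1 (-0.85 ± 0.21, adjusted p = 0.071) and Rtp4 (-0.78 ± 0.20, adjusted p = 0.084) did not pass. The list held 0 calls without IR_30d replicate 2 and 0 without IR_30d replicate 3, 1 each without IR_iEV_30d replicate 1 and without IR_iEV_30d replicate 3, and 3 each without IR_30d replicate 1 and without IR_iEV_30d replicate 2, while DESeq2 called 11 and limma-voom 7.

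The 16 tested GTPases of interferon immunity each had a change below 0, with a median of -0.67, and 1 passed. In the fit without the day 30 pair of libraries rich in parotid markers and in the fit with the adipocyte level as a covariate, 15 of 16 were below 0. Gbp3 was at 7.07, 8.89 and 8.00 CPM in IR_30d and at 5.03, 4.64 and 2.58 CPM in IR_iEV_30d, a fall of 0.97 ± 0.20 (adjusted p = 0.031). The values of Gbp2 were -0.69 ± 0.20 and of Gbp7 -0.92 ± 0.27, and neither passed. Gbp3 lost its call when any 1 of the 3 IR_30d libraries was left out (adjusted p = 0.056 to 0.17) and without IR_iEV_30d replicate 3 (adjusted p = 0.12). Among antigen presentation genes, 0 of 21 MHC class I and immunoproteasome genes (median -0.06) and 0 of 10 MHC class II genes (median -0.01) passed in edgeR, DESeq2 or limma-voom, and 0 of either list had an unadjusted p under 0.05. Of 20 interferon receptors and transcription factors 0 passed in edgeR and in limma-voom, 6 had an unadjusted p under 0.05 and DESeq2 called 1 higher and 1 lower, with a median of -0.06.

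Upstream sequences of Ifit3 and Gbp3 are shown for the interferon-stimulated response element, searched on both strands as GAAA, any 2 bases and GAAA, with matches in capitals (here in the reverse orientation). In Gbp3, which has 2 RefSeq starts with the more upstream one shown, the 2 matches overlap. The windows are chr19:34583279-34583528, plus strand, and chr3:142559794-142560043, plus strand, from RefSeq in GRCm38.p6.
Ifit3: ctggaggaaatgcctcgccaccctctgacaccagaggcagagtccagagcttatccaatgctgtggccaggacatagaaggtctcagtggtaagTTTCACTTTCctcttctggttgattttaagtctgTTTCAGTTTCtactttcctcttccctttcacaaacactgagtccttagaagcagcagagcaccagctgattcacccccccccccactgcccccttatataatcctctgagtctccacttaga
Gbp3: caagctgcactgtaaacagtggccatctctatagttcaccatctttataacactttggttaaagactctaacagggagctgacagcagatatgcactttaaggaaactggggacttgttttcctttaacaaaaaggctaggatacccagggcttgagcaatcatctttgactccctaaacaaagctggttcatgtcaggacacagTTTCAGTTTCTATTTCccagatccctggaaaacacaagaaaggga
The element was found in 334 of 12155 such windows of tested genes (2.75%), in 13 of 40 interferon-stimulated effectors (32.5%), in 3 of 77 genes that fell (3.9%) and in 1 of 22 that rose (4.55%). The window of Helz2, which also fell, held 0 matches.

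A few complement and macrophage genes also fell. Of 21 tested complement genes 1 fell, 17 had a change below 0 and the median was -0.46. Cfb, factor B of the alternative pathway, was at 9.76, 14.4 and 13.9 CPM in IR_30d, 7.30, 7.08 and 5.72 CPM in IR_iEV_30d and 4.16 to 4.33 CPM in NT, a fall of 0.92 ± 0.15 (adjusted p = 0.012). C3ar1, the receptor for C3a (-0.89 ± 0.20), and C1qa, a chain of C1q (-0.54 ± 0.12), each had an adjusted p of 0.051. Of 29 macrophage markers 2 fell, Lyve1 among them, and the median was -0.43. Without IR_iEV_30d replicate 3 the median of the complement genes was -0.26 and that of the macrophage markers -0.21. Lyve1, a hyaluronan receptor of lymphatic vessels and some tissue macrophages, was at 3.44, 5.28 and 5.17 CPM and at 3.01, 1.79 and 0.966 CPM, and fell by 1.28 ± 0.29 (adjusted p = 0.044). The mean log2 CPM of the macrophage list was 2.63, 2.89 and 2.78 in IR_30d and 2.56, 2.57 and 2.03 in IR_iEV_30d, and its part in the interferon and complement results was not tested. Without IR_30d replicate 2, without IR_30d replicate 3 or without IR_iEV_30d replicate 3 no complement gene and no macrophage marker passed, and the adjusted p of Lyve1 was then 0.199, 0.17 and 0.156. It was 0.089 without IR_iEV_30d replicate 2.

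The iEV change of some of these genes differed between the days. The test of the day 30 change minus the day 4 change called 20 genes (0.125% of those tested; the change within day 4 called 5, 0.0312%), and for each of them the change was below 0 at day 30 and above 0 at day 4. These 20 were picked by their difference, which favours opposite signs, so the signs are no separate support. Within day 30, 10 of the 20 passed the threshold, and within day 4, 5 of them did. The 4 groups in this test share no library. The IR_iEV groups of the 2 days also differ in the number of injections, which cannot be told apart from the day. Of the 20, 8 belonged to the interferon-stimulated effectors (Ifit1, Ifit3, Ifitm3, Oas2, Oas3, Rtp4, Bst2 and Cmpk2), and Gbp3, Irf7 (the factor that amplifies type I interferon), Ifi206, Cfb, C1qa, C1qb and Siglec1 were among the others, with Sdc3, Ccdc80, Nfkb2, Hsd11b1 and Slc39a14. Those of the 20 outside the rule for named genes are given because the test called them. By list, it called 8 of 55 interferon-stimulated effectors, 1 of 16 GTPases of interferon immunity, 3 of 21 complement genes and 0 of 29 macrophage markers. Ifit3 was at 2.57, 2.51 and 2.17 CPM in IR_4d and at 7.86, 5.99 and 7.06 CPM in IR_iEV_4d, a rise of 1.52 ± 0.21 at day 4 (adjusted p = 0.010). Its day 30 change minus its day 4 change was -2.60 ± 0.28 (adjusted p = 0.00079). Cfb was at 4.52, 4.38 and 4.51 CPM in IR_4d and 7.93, 9.22 and 7.77 CPM in IR_iEV_4d, and its difference between the days was -1.82 ± 0.22 (adjusted p = 0.0015). In both genes the IR_iEV libraries lay above the IR libraries at day 4 and below them at day 30. The median change of the interferon-stimulated effectors was 0.63 at day 4 and -0.42 at day 30. It was 0.27 and -0.43 for the macrophage markers, 0.30 and -0.46 for the complement genes, and 1.46 and -1.78 for the adipocyte markers. The mean log2 CPM of the adipocyte list was 1.38, 0.02 and 3.90 in IR_4d and 3.69, 5.16 and 1.99 in IR_iEV_4d. For the sublingual list it was 8.28, 7.01 and 2.04 in IR_4d and 1.86, 6.89 and 7.57 in IR_iEV_4d. For skeletal muscle markers it was -2.87, -2.88 and -2.88 in IR_4d and -3.05, 2.19 and -2.36 in IR_iEV_4d. The part of tissue and cell content in the differences between the days was not tested.

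Nfkb2, Hsd11b1 and Slc39a14 had another pattern. Nfkb2 was at 40.1, 38.0 and 38.8 CPM in IR_4d and at 36.6, 42.3 and 41.4 CPM in IR_iEV_4d, so the day 4 groups overlapped and the change was 0.04 ± 0.10. The day 4 change was 0.12 ± 0.14 for Hsd11b1 and 0.01 ± 0.08 for Slc39a14. The day 30 change minus the day 4 change was -1.12 ± 0.14 for Nfkb2 (adjusted p = 0.0015), -1.51 ± 0.20 for Hsd11b1 (adjusted p = 0.0040) and -0.64 ± 0.12 for Slc39a14 (adjusted p = 0.031). Slc39a14 was at 43.0 to 49.4 CPM in the 6 day 4 libraries and at 43.2 to 48.3 CPM in IR_30d, so that among the irradiated groups IR_iEV_30d was its low group. The count of 20 genes was 9 without IR_30d replicate 2, 12 without IR_30d replicate 3 and 7 without the 6 libraries of the series that are high in sublingual markers, and DESeq2 called 119. With the adipocyte level as a covariate the count was 7.

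**Figure D3:**
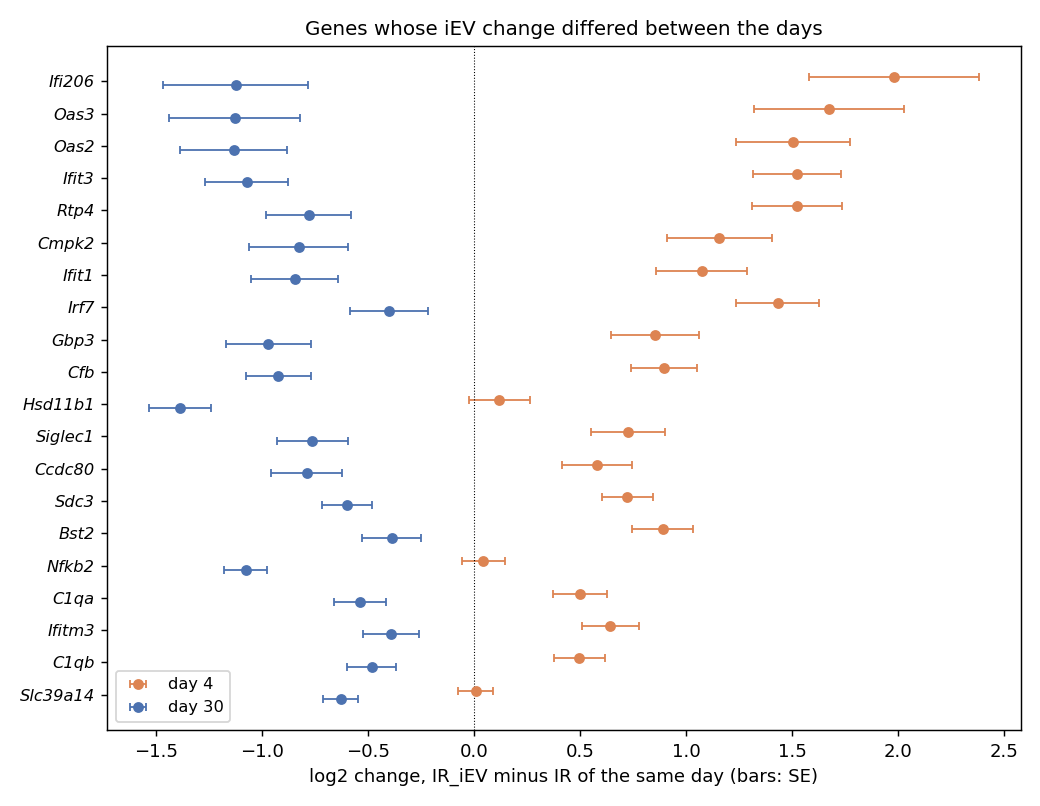
Log2 change between IR_iEV and IR glands (x axis, bars are SE) at day 4 (orange) and day 30 (blue) for the 20 genes whose change differed between the days. Every day 30 value lies below 0, and the day 4 values lie above 0, those of Nfkb2, Hsd11b1 and Slc39a14 close to it (0.04, 0.12 and 0.01). Of the 20, 10 passed the threshold within day 30 and 5 within day 4.

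Among the gene lists, the tubule kallikreins held the most falls. Of 14 tested tubule kallikreins 9 fell, 0 rose, 13 had a change below 0 and the median was -1.08. Klk1b8 was at 7017, 9201 and 8779 CPM in IR_30d, at 1932, 3818 and 1644 CPM in IR_iEV_30d and at 1789, 2234 and 2001 CPM in NT. Klk1b26 was at 44735, 49822 and 50519.7 CPM in IR_30d, 25263, 34071 and 24966 CPM in IR_iEV_30d and 18109.5, 27056 and 24534 CPM in NT. IR_iEV_30d replicate 2 was the highest of its group for both, yet lay below every IR_30d library. Klk1b8 fell by 1.76 ± 0.34 (adjusted p = 0.041), Klk1b26 by 0.78 ± 0.17 (adjusted p = 0.041), Klk1b9 by 1.20 ± 0.22 (adjusted p = 0.023) and Klk1b11 by 0.76 ± 0.12 (adjusted p = 0.011). The other 5 that fell were Klk1b3, Klk1b21, Klk1b22, Klk1b24 and Klk1b27. Not past the threshold were Klk1b1 (-1.22 ± 0.27), Klk1b16 (-1.06 ± 0.25), Klk1b4 (-0.67 ± 0.20) and Klk1b5 (-0.14 ± 0.15).

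Klk1, the true tissue kallikrein, had a change of opposite sign. It was at 2978, 2093 and 2348 CPM in IR_30d, at 5433, 3413 and 5491 CPM in IR_iEV_30d and at 10365, 6023 and 5539.6 CPM in NT. Its change was 0.95 ± 0.25 and did not pass in edgeR (adjusted p = 0.12), although the groups did not overlap and DESeq2 called it. The kallikrein genes are near-identical copies, and how reads that match several of them were assigned is not given in the sources used here, so the split of a change between members is uncertain. Without IR_30d replicate 2 or without IR_30d replicate 3 none of the 14 passed, 1 passed without IR_iEV_30d replicate 1 and 1 without IR_iEV_30d replicate 3, 5 without IR_30d replicate 1, and without IR_iEV_30d replicate 2 the test called 11 lower and 1 higher, Klk1 (1.15, adjusted p = 0.037). The median stayed between -1.29 and -0.92 in those 6 fits.

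**Figure D4:**
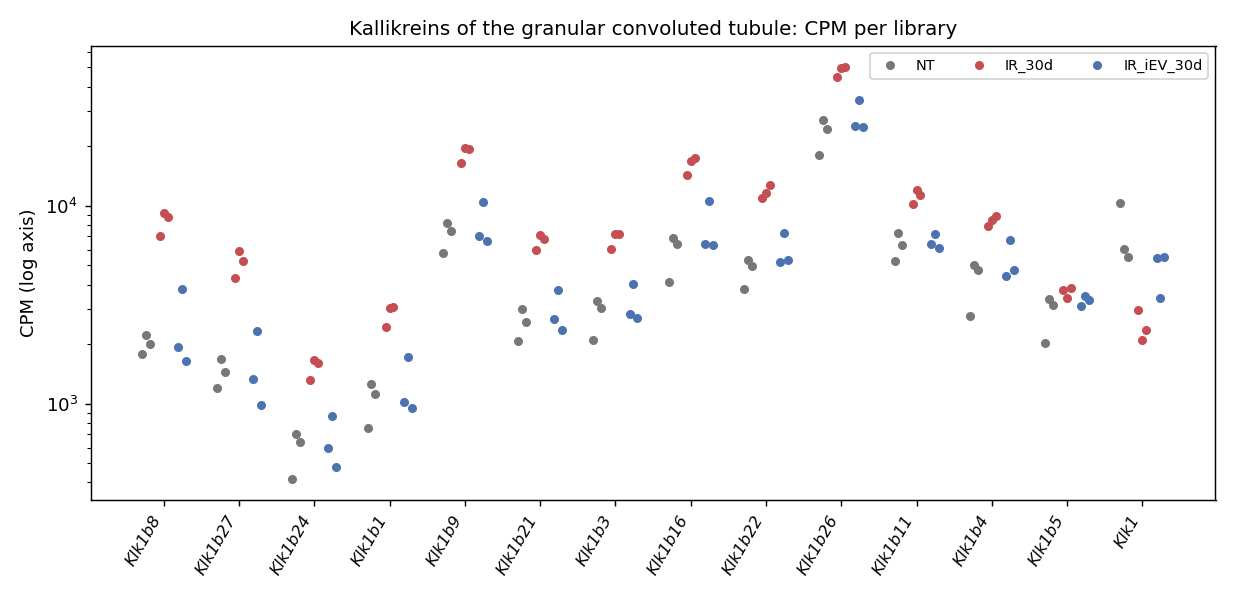
CPM per library (y axis, log scale) of the 14 tested kallikreins, ordered by their change, in NT (grey), IR_30d (red) and IR_iEV_30d (blue). IR_30d lies highest for most members, for example 7017 to 9201 CPM for Klk1b8, the groups overlap for Klk1b5, and Klk1 is lowest in IR_30d, at 2093 to 2978 CPM.

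Other tubule products followed in part. Of 16 tested growth factors and other products 4 fell, Crisp3, Vegfa and Fgf1 among them, 0 rose and the median was -0.32. Vegfa, the vascular growth factor, was at 833, 1001 and 853 CPM and at 471, 590.2 and 445 CPM, and fell by 0.83 ± 0.14 (adjusted p = 0.013). Crisp3, a cysteine-rich secretory protein, fell by 1.06 ± 0.22 (adjusted p = 0.042) and Fgf1 by 0.60 ± 0.12 (adjusted p = 0.027). Egf was at 70768, 70836 and 71940.2 CPM and at 36310.3, 49543 and 34282 CPM, which did not overlap, and its change of -0.83 ± 0.21 did not pass (adjusted p = 0.093). Kcnj16, a duct potassium channel, fell by 0.81 ± 0.16 (adjusted p = 0.030). Without IR_30d replicate 2, without IR_30d replicate 3, without IR_iEV_30d replicate 1 or without IR_iEV_30d replicate 3 none of the 16 products passed. Without the last of these the list's median was -0.07, and without IR_iEV_30d replicate 2 it was -0.78.

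Several chaperones and degradation factors of the endoplasmic reticulum fell. Of 41 tested genes of the unfolded protein response 6 fell, 0 rose, 34 had a change below 0 and the median was -0.21 (-0.13 without IR_30d replicate 2). Hspa5 (BiP), the main chaperone of the compartment, was at 707, 967 and 777 CPM in IR_30d, 518, 555 and 442 CPM in IR_iEV_30d and 519 to 645 CPM in NT, and fell by 0.69 ± 0.12 (adjusted p = 0.013). Its cochaperone and exchange factor Hyou1 fell by 0.60 ± 0.12 (adjusted p = 0.024), and Sel1l and Edem1, which pass misfolded proteins to degradation, by 0.55 ± 0.09 (adjusted p = 0.012) and 0.54 ± 0.11 (adjusted p = 0.023). Manf and Dnajb11 also fell, while Pdia6 (-0.38 ± 0.11) and Ero1b (-0.29 ± 0.09) did not pass. Of 59 genes of translocation and secretory transport 1 fell, the cargo receptor Lman1 (by 0.49 ± 0.11, adjusted p = 0.041), 51 had a change below 0 and the median was -0.11. Sar1b, a GTPase of transport vesicles, had a change of -0.33 ± 0.08 (adjusted p = 0.058). None of the 41 chaperone and degradation genes passed without IR_30d replicate 2, without IR_30d replicate 3 or without IR_iEV_30d replicate 1. None of 35 genes of the ATF4 and amino acid stress response passed in edgeR, DESeq2 or limma-voom, and 6 had an unadjusted p under 0.05.

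Among acinar genes, Aqp5 rose, from 192, 210 and 216 CPM in IR_30d to 259, 267 and 319 CPM in IR_iEV_30d, beside 271 to 288 CPM in NT. The change was 0.45 ± 0.10 (adjusted p = 0.041), and it passed without IR_iEV_30d replicate 2 but in none of the other 5 fits with a library left out (adjusted p = 0.059 to 0.205). Aqp5 was the 1 gene called of 34 tested genes of acinar fluid secretion, whose median was 0.05. Lrrc26, a potassium channel subunit (0.44 ± 0.12), and the potassium channel Kcnn4 (0.35 ± 0.11) did not pass. Of 23 acinar secretory products 0 passed in edgeR and limma-voom, 5 had an unadjusted p under 0.05, DESeq2 called 3, and the median was 0.32. Without IR_iEV_30d replicate 2, the library rich in sublingual and parotid markers, that median was -0.02, and without IR_iEV_30d replicate 3 it was 0.21. Among 30 genes of ductal ion transport Fxyd2 rose and Kcnj16 fell. Fxyd2, the gamma subunit that modulates the sodium pump, was at 73.1, 73.7 and 83.0 CPM in IR_30d, 187, 115 and 263 CPM in IR_iEV_30d and 148 to 175 CPM in NT, a rise of 1.30 ± 0.25 (adjusted p = 0.034). Its IR_iEV_30d libraries lay above the IR_30d libraries but were widely spread. Scnn1a, the sodium channel subunit, had a change of 0.45 ± 0.11 and did not pass. Fxyd2 kept its call without IR_iEV_30d replicate 2 alone (adjusted p = 0.0019) of the 6 fits with a library left out, and Kcnj16 likewise (adjusted p = 0.026).

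The other large rises were in scattered genes. The largest rise, 2.49 for C1ql3, lay outside the rule for named genes and kept its call in 1 of the 6 fits with a library left out. Trib2, a pseudokinase that steers protein degradation, was at 14.3, 16.4 and 11.7 CPM in IR_30d, 31.1, 20.2 and 32.6 CPM in IR_iEV_30d and 29.3 to 32.9 CPM in NT, and rose by 0.99 ± 0.19 (adjusted p = 0.025). Zfp185, an actin-binding LIM protein, was at 12.8, 10.7 and 8.83 CPM and at 17.7, 17.1 and 18.7 CPM, and rose by 0.73 ± 0.12 (adjusted p = 0.012). Kirrel3, a cell adhesion protein, rose by 0.93 ± 0.19, and Clmn, an actin-binding membrane protein, by 0.72 ± 0.13. The metal-binding Mt1 rose by 0.71 ± 0.15 (adjusted p = 0.041), from 30.0 to 39.3 CPM in IR_30d to 52.1 to 68.4 CPM in IR_iEV_30d, while Mt2 had a change of 0.76 ± 0.24 and did not pass. Bmf, a proapoptotic BH3-only protein, rose by 0.68 ± 0.13, the lactate dehydrogenase subunit Ldhb by 0.61 ± 0.13 and the transcription factor Foxq1 by 0.59 ± 0.10. Vsig10, Kndc1, Fam221a, Engase and Zdhhc2 rose by 0.56 to 0.64. Fzd6, a Wnt receptor, was the 1 gene called of 33 in the Wnt list and rose by 0.42 ± 0.09. The 27 rises were reduced to 0 without IR_30d replicate 3, 1 without IR_30d replicate 2, 4 without IR_iEV_30d replicate 3, 6 without IR_iEV_30d replicate 1 and 9 without IR_30d replicate 1, and reached 56 without IR_iEV_30d replicate 2.

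The largest fall on the log2 scale was that of Spock1, a proteoglycan of the extracellular matrix. It was at 7.82, 6.91 and 7.06 CPM in IR_30d, 0.710, 1.51 and 0.338 CPM in IR_iEV_30d and 0.240 to 1.09 CPM in NT, a fall of 3.12 ± 0.56 (adjusted p = 0.022). IR_30d was the high group, at CPM values near those of weakly expressed genes, and only the fit without IR_iEV_30d replicate 2 kept the call of the 6 that left out a library (adjusted p = 0.060 to 0.10 in the others). Col6a3 was at 53.9, 58.7 and 47.8 CPM in IR_30d, 42.7, 34.7 and 30.5 CPM in IR_iEV_30d and 64.3 to 75.4 CPM in NT, and fell by 0.57 ± 0.13 (adjusted p = 0.046). Spock1 and Col6a3 were the genes called of 49 in the matrix list, whose median was -0.20 (-0.10 without IR_iEV_30d replicate 3), with Col5a1 at -0.65 ± 0.15 (adjusted p = 0.057). The 15 tested fibroblast markers each had a change below 0 (14 without IR_30d replicate 3, without IR_iEV_30d replicate 1 or without IR_iEV_30d replicate 3), with a median of -0.25 (-0.42 without IR_iEV_30d replicate 1), and 0 passed in edgeR and limma-voom, 7 had an unadjusted p under 0.05 and DESeq2 called 1. Dpt, a matrix protein of fibroblasts (-0.96 ± 0.31), and Mfap5, a microfibril protein (-0.66 ± 0.19), were the nearest to the threshold. The lower fibroblast level stood beside the matrix values in the same libraries, and its part in them was not tested. Also among the large falls, Castor1, an arginine sensor of the mTORC1 pathway, fell by 1.27 ± 0.26, Plcxd2, a phospholipase-like protein, by 1.09 ± 0.22, and Gsto1, a glutathione transferase, by 0.84 ± 0.14. Without IR_30d replicate 2, without IR_30d replicate 3 or without IR_iEV_30d replicate 3 none of Castor1, Plcxd2, Gsto1 and Col6a3 passed (adjusted p = 0.074 to 0.246).

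Genes for cytosolic ribosomal proteins had small positive changes. Of 81 tested 81 had a change above 0, the median was 0.22 and 55 did not overlap between the groups, against 19.6% of the tested genes. The direction was the same for 81 under each scaling tried, and for 80 without IR_30d replicate 1 and with the adipocyte level as a covariate. Rps23, at 102, 104 and 111 CPM in IR_30d and 140, 126 and 134 CPM in IR_iEV_30d, was the 1 that passed (0.34 ± 0.07, adjusted p = 0.042), and it kept its call without IR_iEV_30d replicate 2 alone of the 6 fits with a library left out. Rpl34 (0.35 ± 0.09) and Rpl23a (0.32 ± 0.09) did not pass. DESeq2 called 15, limma-voom 1 and the fit with a replicate block 0, while 53 had an unadjusted p under 0.05, each of them higher (5.57% of tested genes). Of 75 nuclear genes of oxidative phosphorylation 70 had a change above 0 with a median of 0.14 (0.21 without IR_iEV_30d replicate 2 and 0.09 without IR_iEV_30d replicate 3), and 0 passed in edgeR, DESeq2 and limma-voom, with 16 at an unadjusted p under 0.05 and Ndufa4 (0.29 ± 0.09) and Ndufa5 (0.42 ± 0.13) nearest. Over all genes with a known transcript length the median was 0.12 over 189 genes with a longest coding transcript of up to 700 bases and -0.08 over 1878 genes above 6000 bases, with lengths from the GRCm38 annotation for 85.2% of tested genes. The shortest bin holds ribosomal and oxidative phosphorylation genes themselves. Among other genes with a mean of at least 50 CPM, the median was -0.05 at 700 to 1000 bases (35 genes) and 0.02 at 1000 to 1500 bases (86 genes). From there it went down with length. It was 0.009 at 1500 to 2500 bases (351 genes), -0.009 at 2500 to 4000 bases (546 genes), -0.02 at 4000 to 6000 bases (588 genes) and -0.08 above 6000 bases (527 genes). The part of length in the change of the ribosomal and oxidative phosphorylation genes was not tested.

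No p53 response gene differed past the threshold. Of 49 tested p53 targets 0 passed in edgeR, DESeq2 or limma-voom, 6 had an unadjusted p under 0.05 (12.9% of tested genes did) and the median was -0.04. Cdkn1a (p21), the cell cycle inhibitor, was at 24.9, 45.8 and 31.0 CPM in IR_30d, 35.4, 34.0 and 30.5 CPM in IR_iEV_30d and 1.76 to 3.03 CPM in NT, so the irradiated groups overlapped with a change of -0.02 ± 0.21 whose sign varied with the fit. Its difference from NT was 3.70 ± 0.25 in IR_30d and 3.67 ± 0.25 in IR_iEV_30d. None of 40 cell cycle genes passed in the 3 tools. Of the 40, 34 had a change below 0, with a median of -0.28 (-0.39 to -0.21 with single libraries left out). At an unadjusted p under 0.05 were 8 of them, 7 lower (7.31% of tested genes were) and 1 higher. None of 14 Hedgehog genes passed in the 3 tools either, with 2 at an unadjusted p under 0.05. Gli1, the transcription factor that reads out the pathway, was low at 0.286 to 0.673 CPM over the 6 libraries. Aldh3a1, an aldehyde dehydrogenase, was at 0.876, 1.41 and 1.01 CPM and at 0.937, 1.28 and 1.42 CPM. None of 25 chemokine genes passed in edgeR, with 4 at an unadjusted p under 0.05 and 1 call each by DESeq2 and limma-voom, and Cxcl16 had a change of -0.47 ± 0.11. Of 16 acute phase and innate defence genes 1 fell, Lcn2, and Cd14, a receptor for bacterial lipopolysaccharide, had a change of -0.58 ± 0.14 (adjusted p = 0.072). T and NK cell markers (20 tested, median 0.15, and 0.08 to 0.34 with single libraries left out) held 0 calls in the 3 tools and 1 gene at an unadjusted p under 0.05.

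**Figure D5:**
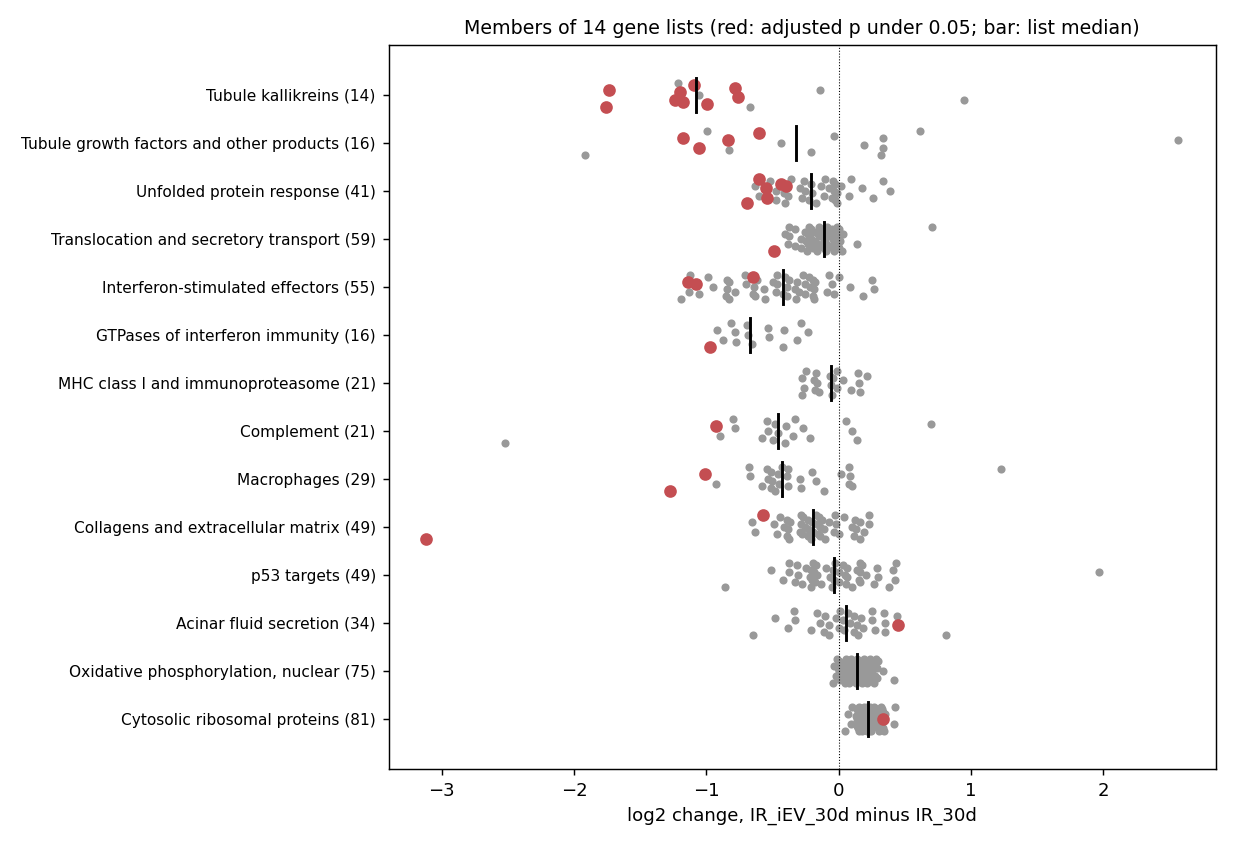
Log2 change (x axis, IR_iEV_30d minus IR_30d) of every tested member of 14 gene lists, with the number tested in brackets, genes past the threshold in red and the list median as a black bar. Among these 14, tubule kallikreins lie farthest below 0 (median -1.08), interferon genes lie mostly below 0, and the ribosomal proteins lie above 0 (median 0.22). Some lists with lower medians and no calls, such as adipocytes (-1.78) and erythrocytes (-1.46), are not plotted.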

How the data were processed

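Total RNA was extracted with TRIzol and libraries were made with the PerkinElmer NEXTFLEX Rapid Directional RNA-Seq Kit, per the labels' protocols. The submitters' processing notes name TopHat, HTSeq, DESeq2 and the build GRCm39, with no roles or versions. The deposited table holds raw read counts per gene symbol for 15 libraries, as the authors made it, and 0 of its sample columns were left unused.

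The counts were fitted with edgeR 4.0.16 (R 4.3.3) over the 15 libraries with TMM scaling, filterByExpr (minimum count 10, minimum total 15) and the quasi-likelihood test, without a replicate term. P-values were Benjamini-Hochberg adjusted over 16042 of 21013 genes, with a threshold of 0.05. The same fit gave the day 4 change, the difference between the days and the values against NT. List levels are means of log2 CPM with a prior count of 2. DESeq2 1.42.0, limma-voom (limma 3.58.1), other scalings and filters, a fit of the 6 libraries alone, a replicate block, the sublingual level as a covariate and leaving out each library were the alternatives. Fits without libraries rich in sublingual or parotid markers, and with an adipocyte covariate, were added after seeing the data. Promoter letters came from RefSeq tables of GRCm38.p6 matched by symbol.

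The comparison and the 63 gene lists were chosen with earlier results of these data known. Named are the 15 largest falls and 15 largest rises among called genes with non-overlapping groups whose mean reached 2 CPM, leaving out mitochondrial, immunoglobulin, T cell receptor and predicted genes, called list members, the 2 uncalled members of a list with the lowest p, and 8 preset genes; not each of these is described, and some are not reported here. In data simulated from the real means with 200 changed genes, the main test recovered 78% of 2-fold and 38% of 1.5-fold changes with 10 false calls, and the test of the difference between days 56% and 9% with 4 false calls. The changed genes were drawn without the most weakly expressed ones, and the simulated libraries held no shared shifts from neighbouring tissue. These rates may therefore not hold for the real libraries. Replicate libraries differed by more than sampling noise (chi-square over degrees of freedom 11.8 to 126), so none was counted as a duplicate.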

Additional observations from a re-analysis of the deposited data

Results flagged for a closer look

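The iEV change differed between day 30 and day 4 in 20 genes, by edgeR's test of the day 30 change minus the day 4 change. On the log2 scale this difference was -2.60 for Ifit3, -2.64 for Oas2, -2.80 for Oas3, -1.92 for Ifit1, -2.30 for Rtp4, -1.99 for Cmpk2, -1.28 for Bst2 and -1.03 for Ifitm3, which belong to the interferon-stimulated effectors. It was -1.82 for Gbp3, -1.83 for Irf7 and -3.11 for Ifi206, which are also interferon-responsive. It was -1.82 for Cfb, -1.04 for C1qa and -0.98 for C1qb among complement genes, and -1.49 for Siglec1. The syndecan Sdc3 had a value of -1.32 and Ccdc80 one of -1.37. It was -1.12 for Nfkb2, -1.51 for Hsd11b1 and -0.64 for Slc39a14, the 3 of these genes whose day 4 groups lay nearest to each other.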

How the results depend on the processing

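The count of 128 changed genes (27 higher, 101 lower) and of 20 genes that differed between the days moved with the tool and with the libraries used. DESeq2 gave 408, 143, 265 and 119. The fit of the 6 libraries alone gave 70, 8 and 62. With the sublingual covariate 57 genes were higher. When the 6 libraries with high sublingual markers were dropped, the counts were 317, 117, 200 and 7. Without the parotid-rich pair they were 60, 8, 52 and 10, and with the adipocyte covariate 39, 5, 34 and 7. Leaving out 1 library at a time gave 9 to 192 changed, 0 to 56 higher, 9 to 136 lower and 9 to 29 between the days. The causes of these shifts were not tested, and fits that leave libraries out also hold fewer samples. The other alternatives stayed within 1.5 times: limma-voom 159, DESeq2 size factors 130, upper quartile scaling 124, no low-count filter 133 and a mean of at least 5 CPM 134.

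Same-numbered libraries of the 2 groups deviated together weakly (correlations of 0.08, 0.13 and 0.04). Differently numbered libraries had correlations from -0.11 to 0.05, each below 0 except that of IR_iEV_30d replicate 3 with IR_30d replicate 1 (0.05). IR_iEV_30d replicate 3 thus correlated best with a library of another number, and the main test did not take the numbers as pairs. With a replicate block 83 genes changed, 14 higher and 69 lower, and 20 differed between the days.

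No called gene changed direction. Among uncalled named genes near 0, Cdkn1a turned positive with limma-voom (0.016), upper quartile scaling (0.0024), the block (0.0025), without IR_30d replicate 2 (0.25), without IR_iEV_30d replicate 3 (0.036), without the parotid-rich pair (0.24) and with the adipocyte covariate (0.070), with -0.20 to 0.25 over the left-out libraries. Rela turned positive with upper quartile scaling (0.0024), without IR_30d replicate 2 (0.080), without IR_iEV_30d replicate 1 (0.014) and without the parotid-rich pair (0.069), with -0.084 to 0.080 over the left-out libraries. Relb turned negative without IR_30d replicate 1 (-0.00068, up to 0.19) and Gli1 without IR_30d replicate 3 (-0.044, up to 0.35). With 3 libraries a group, changes under 1.5-fold were mostly below what the test recovered in the simulated data.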
